A study of Mus musculus with 2 samples.

Results

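The genes described here are Bcl11b, Fezf2, Tbr1, Foxp2, Rorb, Cux1, Cux2, Neurod2 and Neurod6, 9 of 21887 protein-coding genes. They encode transcription factors that set and keep the identity of cortical projection neurons, the excitatory cells that send long axons out of their own cortical area. The genes were named for this role, and the loops of each were those with an anchor within 2.5 kb of an end of the gene. In these terms 7 of the 9 genes had a loop, with 29 loops in the MCAO list and 17 in the sham list, and no loop served more than 1 of them. Neurod2 and Fezf2 had none in either list.

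The data are Hi-C loop lists from mouse cerebral cortex. MCAO stands for middle cerebral artery occlusion with a filament, here for 1 h and followed by 6 h of reperfusion, with cortex taken from the ischemic territory on the operated side. Sham animals had the same anesthesia and surgery without the filament being advanced, and the same 6 h of recovery. The labels give 3 cortices as biological replicates of the stroke and sham groups, and no strain, sex or age. Each group has a single loop list, so the spread between animals is unknown and the conditions were not tested against each other. Hi-C joins DNA ends that lie close together in the nucleus, and each loop is a pair of anchor regions with its PETs, the paired-end tags found to link the anchors. The libraries held 40550536 PETs in MCAO and 34974213 in sham, a depth ratio of 1.16, and the lists held 15592 and 14779 loops with at least 10 PETs each. Intervals are at the 95% level and speak of counting error alone. Hi-C does not measure RNA, so the cell types in the tissue could not be checked against marker genes. In bulk tissue, fewer cells of a type and fewer contacts per cell cannot be told apart.

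In the developing cortex Fezf2 and Bcl11b specify the deep-layer neurons that project to brainstem and spinal cord, while Tbr1 and Foxp2 mark deep-layer neurons that project to the thalamus. Rorb marks neurons of the granular layer, which receive thalamic input, and Cux1 and Cux2 mark neurons of the upper layers, which connect cortical areas. Neurod2 and Neurod6 are basic helix-loop-helix factors of newly born and mature projection neurons. Genes of this kind are often flanked by wide regions without other genes, which hold distal enhancers that reach the promoter by chromatin looping. Loops arise where cohesin extrudes DNA until it meets the insulator protein CTCF, and also between promoters and enhancers.

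RefSeq promoters (GRCm38.p6, the assembly of mm10, 250 bases before to 50 after the start) were found for 8 of the 9 genes, all but Foxp2. Those of Bcl11b, Tbr1 and Neurod6 and the first of 2 for Cux2 are shown. Each lay inside an anchor of the loop with the most PETs of its gene. The same Cux2 anchor also held the second Cux2 promoter, which is not shown. The partner lay elsewhere for Bcl11b, Tbr1 and Neurod6 and within the gene itself for Cux2. The window of Bcl11b is chr12:108003365-108003664 on the minus strand, that of Tbr1 chr2:61804203-61804502 on the plus strand, that of Cux2 chr5:122049802-122050101 on the minus strand and that of Neurod6 chr6:55681214-55681513 on the minus strand. Capitals mark CpG dinucleotides.
Bcl11b: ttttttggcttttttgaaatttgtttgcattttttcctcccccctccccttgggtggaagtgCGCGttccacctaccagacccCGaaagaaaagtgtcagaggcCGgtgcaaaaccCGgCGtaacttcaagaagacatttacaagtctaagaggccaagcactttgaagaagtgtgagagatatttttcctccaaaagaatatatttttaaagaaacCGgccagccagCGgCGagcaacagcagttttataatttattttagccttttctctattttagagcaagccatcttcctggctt
Tbr1: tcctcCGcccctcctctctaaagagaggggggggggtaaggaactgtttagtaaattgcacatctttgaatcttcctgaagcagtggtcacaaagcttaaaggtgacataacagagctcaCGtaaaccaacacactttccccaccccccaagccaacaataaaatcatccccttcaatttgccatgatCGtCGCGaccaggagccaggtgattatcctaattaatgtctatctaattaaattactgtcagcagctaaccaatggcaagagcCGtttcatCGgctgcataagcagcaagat
Cux2: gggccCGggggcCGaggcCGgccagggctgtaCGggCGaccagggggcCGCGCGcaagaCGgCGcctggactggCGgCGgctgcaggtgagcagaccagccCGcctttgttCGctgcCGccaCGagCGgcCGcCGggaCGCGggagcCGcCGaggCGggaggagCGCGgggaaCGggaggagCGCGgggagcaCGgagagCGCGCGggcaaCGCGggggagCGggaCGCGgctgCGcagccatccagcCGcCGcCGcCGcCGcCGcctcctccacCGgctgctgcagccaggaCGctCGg
Neurod6: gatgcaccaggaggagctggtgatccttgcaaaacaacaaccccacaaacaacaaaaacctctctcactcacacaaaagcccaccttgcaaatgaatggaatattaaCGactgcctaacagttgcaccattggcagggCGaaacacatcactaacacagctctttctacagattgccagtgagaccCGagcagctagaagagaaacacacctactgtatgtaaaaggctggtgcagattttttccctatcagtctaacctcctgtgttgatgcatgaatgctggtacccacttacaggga

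These windows differ in base composition. The Cux2 window holds 48 CpGs with a GC content of 80.3% and the Neurod6 window 3 CpGs with 46.3%, while Bcl11b has 9 and 43% and Tbr1 7 and 46%. Observed over expected CpG was 0.652 for Bcl11b, 0.453 for Tbr1, 1.01 for Cux2 and 0.192 for Neurod6, against a median of 0.566 over 21230 promoters of protein-coding genes. On both strands, the E-box bound by NEUROD factors (CAGATG) was found in none of the 4 windows, and 14.6% of all promoters hold it. A T-box site (AGGTGTGA, in 1.15% of promoters) was not in these windows either. Among the other windows of the 9 genes, the E-box occurred once in the Neurod2 promoter and once in the second Cux2 promoter. The latter lies in the same loop anchor as the Cux2 window shown.

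Seen gene by gene, MCAO had more loops at 5 of the 9 genes and fewer at 2. Among the 13490 genes with a loop in either list, 46.6% had more in MCAO and 33.6% had fewer. Among the 1654 genes with at least 5 loops over both lists, as all 7 genes here have, the shares were 54.7% and 33.5%, so 5 of 7 and 2 of 7 lie near the background. The median difference, MCAO minus sham, was 1 loop over the 9 genes, of which 2 had no loop. It was 0 over genes with a loop in either list, which is not a like set because genes without a loop are left out. The numbers 29 in MCAO (19.4 to 41.6, exact Poisson interval) and 17 in sham (9.90 to 27.2) give a log2 ratio of 0.77 (-0.14 to 1.73). Over all gene-end loops, 9561 in MCAO and 7765 in sham, that ratio was 0.30 (0.26 to 0.34). Having at least 1 loop was common, at 47.9% of all genes in MCAO and 43.0% in sham, while 38.4% had none in either list.

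**Figure D1:**
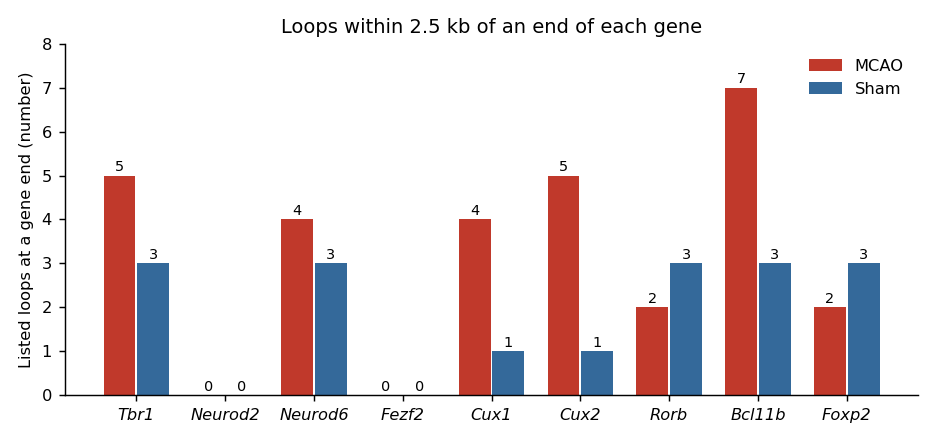
Number of listed loops with an anchor within 2.5 kb of an end of each gene (y axis), with 1 bar for the MCAO list and 1 for the sham list. Bcl11b has 7 and 3, Cux2 5 and 1 and Cux1 4 and 1, Rorb and Foxp2 each have 2 and 3, and Neurod2 and Fezf2 have 0 and 0.

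Bcl11b, a zinc finger factor gene of corticospinal neurons (chr12:107910403-108004145), had 7 loops in MCAO and 3 in sham. Most of them were among the longest of the 9 genes and ran the same way, away from its promoter end across its own body and into a gene-poor region toward the kinase gene Vrk1. In MCAO, 5 partner anchors lay between 105989698 and 106621372 on chromosome 12, with spans of 2009, 1823, 1721, 1608 and 1390 kb and with 11, 33, 26, 12 and 12 PETs. In sham, 2 lay there, with spans of 1973 and 1845 kb and with 14 and 12 PETs. The MCAO loop of 2009 kb was counted at Bcl11b though its anchor there lay 1.89 kb outside the gene. The interval without a protein-coding gene between Vrk1 and the predicted gene Gm46320 is 556 kb long (chr12:106078319-106634704). It held 4 of these partner anchors in MCAO and 1 in sham. Over all loops, 10 in MCAO and 2 in sham had an anchor centred in that interval. These include the 4 and 1 at Bcl11b, and like counts for other gene deserts are not given here.

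The loop with the most PETs of all 9 genes was also at Bcl11b. It was listed in MCAO with 61 PETs and a span of 911 kb, from chr12:107933595-108033279 to chr12:107023679-107120590 at the predicted gene Gm52008, and it had no counterpart in sham. A further MCAO loop of 124 kb and 17 PETs ran the other way, into the body of the methyltransferase gene Setd3. The sham list alone held a loop of 507 kb and 11 PETs from the 3′ end of Bcl11b into the 798 kb gap below it. The difference of 4 loops has an interval of -3.05 to 8.67, which holds 0, and 6.71% of genes with at least 5 loops exceeded sham by 4 or more. Only 8 genes, Bcl11b among them, had 7 loops in MCAO and 3 in sham. With any part of the gene counted, Bcl11b had 7 and 6 loops.

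Fezf2, the zinc finger factor gene that acts upstream of Bcl11b in subcerebral neurons (chr14:12338992-12346803), had no loop at its ends in either list. The exact upper limit for a number of 0 is 3.69 loops, and a loop below 10 PETs is not listed. The nearest anchor lay 26.9 kb from the gene in MCAO and 50.1 kb in sham. Loops passed over the gene instead, with 28 PETs over 368 kb and 18 PETs over 302 kb in MCAO, against 29 PETs over 361 kb in sham. Within 100 kb of Fezf2 there were anchors of 5 MCAO loops and 1 sham loop, and no like count over all genes is given here.

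Tbr1, the T-box factor gene of corticothalamic neurons (chr2:61802863-61814114), had 5 loops in MCAO and 3 in sham, and all but 1 ran toward higher coordinates, over or into Slc4a10, a neuronal bicarbonate transporter gene. The longest joined Tbr1 to the RNA sensor gene Ifih1 in both lists, with 38 PETs over 824 kb in MCAO, where the anchor also reached the calcium-binding protein gene Gca, and 24 PETs over 802 kb in sham. A loop to the far part of Slc4a10 carried 25 PETs over 486 kb in MCAO, where the anchor reached the peptidase gene Dpp4, and 14 PETs over 459 kb in sham. MCAO alone listed loops to the near end of Slc4a10 (241 kb, 13 PETs), to an intergenic anchor near the glucagon gene Gcg (648 kb, 11 PETs) and back to the far end of the proteasome gene Psmd14 (93.5 kb, 12 PETs). Sham alone listed a loop into Slc4a10 (293 kb, 10 PETs). Psmd14 ends 2.49 kb below Tbr1, and its end lay within 2.5 kb of the anchor at Tbr1 in all 5 MCAO loops and 2 of 3 sham loops, so these loops cannot be told apart from loops of Psmd14. The loops with the most PETs were thus present in both lists, and those in a single list had 10 to 13 PETs, near the minimum of 10. The interval of the difference of 2 loops, -4.08 to 6.64, holds 0.

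Foxp2, a forkhead factor gene of corticothalamic neurons (chr6:14901349-15441977), had 2 loops in MCAO and 3 in sham, all from its lower end. A loop within the gene carried 18 PETs over 520 kb in MCAO and 31 PETs over 483 kb in sham. The remaining MCAO loop ran 1312 kb with 15 PETs into the gene desert between Mdfic and the transcription factor gene Tfec (chr6:16174754-16226611). A sham loop of 1431 kb, also with 15 PETs, ended in the same desert at chr6:16315683-16357959, and the gap of 136 kb kept these from being counterparts. The longest loop of all 9 genes, 2084 kb with 21 PETs, was in sham and ended between Tfec and Tes. MCAO held a loop of 2147 kb and 24 PETs beside it, whose anchor stopped 33.3 kb short of the end of Foxp2 and so was not counted there. With any part of the gene counted, Foxp2 had 5 loops in MCAO and 8 in sham.

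Rorb, the nuclear receptor gene of granular-layer neurons (chr19:18930609-19111196), had 2 loops in MCAO and 3 in sham, all of them into or across the 1262 kb gap between Rorb and Anxa1, an annexin gene. From its 3′ end, a MCAO loop with 47 PETs ran 1382 kb to Anxa1 and a sham loop with 35 PETs ran 1255 kb into the desert. From its 5′ end, a MCAO loop with 20 PETs ran 1239 kb to a desert anchor 11.3 kb short of Anxa1, and sham loops with 10 and 11 PETs ran 891 kb into the desert and 1433 kb into the retinal dehydrogenase gene Aldh1a1. Each of the loops at the 3′ end had a counterpart whose own anchor lay inside Rorb, past the 2.5 kb limit. For the MCAO loop this was a sham loop of 1367 kb and 11 PETs, 39.4 kb from the gene end, and for the sham loop an MCAO loop of 1233 kb and 37 PETs, 18.6 kb from it. The number at Rorb thus turned on where an anchor began: with any part of the gene counted there were 5 loops in MCAO and 6 in sham, and with at least 15 PETs the difference was 1 in favour of MCAO.

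Cux1 and Cux2, homeobox genes of upper-layer neurons, are both on chromosome 5 and are long genes, and part of their loops stayed inside them. At Cux2 (chr5:121857962-122050415) MCAO had 5 loops and sham 1. The only sham loop joined the 5′ end of Cux2 to its own body, with 11 PETs over 93.6 kb. Its MCAO counterpart had 27 PETs over 108 kb, and a further MCAO loop within Cux2 had 16 PETs over 149 kb. A MCAO loop from the 5′ end reached the ubiquitin ligase gene Brap (373 kb, 10 PETs). The other two were counted at the 3′ end but their anchors stopped 1.15 and 2.44 kb short of Cux2 and held ends of Pheta1 and Sh2b3, and in the first case of Atxn2, so they belong to these genes as much. They reached the phosphatase gene Pptc7 and the checkpoint gene Rad9b (481 kb, 16 PETs), and the ATP-gated channel gene P2rx4 with the kinase gene Camkk2 (870 kb, 11 PETs). None of these loops beyond the gene had a counterpart. The interval of the difference of 4 loops, -1.69 to 5.95, holds 0. With any part of Cux2 counted the numbers were 8 in MCAO and 1 in sham.

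At Cux1 (chr5:136248135-136567590) MCAO had 4 loops and sham 1, and none had a counterpart. The MCAO loop with the most PETs, 24, was the shortest of the 9 genes at 46.3 kb and joined the 3′ end of Cux1 to Prkrip1. Another from that end reached Upk3bl and the Ras regulator gene Rasa4 (168 kb, 10 PETs). The anchors of both at Cux1 also held the end of the adaptor gene Sh2b2, 1.54 kb below it. From the 5′ end, MCAO loops of 278 and 177 kb stayed inside Cux1, each with 11 PETs. The sham loop left the 5′ end for the collagen gene Col26a1, with 10 PETs over 152 kb, and its anchor stopped 2.08 kb short of Cux1. With no window at gene ends, the difference at Cux1 was 4 loops. When MCAO loops had to reach 10 PETs after division by the depth ratio, the difference of 3 loops became 0, and with any part of Cux1 counted there were 4 loops in each list.

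Neurod6, the basic helix-loop-helix factor gene (chr6:55677818-55681263), had 4 loops in MCAO and 3 in sham, most of them within the gap to its neighbour on the lower side. In MCAO 3 loops ended in the 176 kb gap toward Adcyap1r1, a neuropeptide receptor gene, with 19 PETs over 108 kb, 18 PETs over 133 kb and 11 PETs over 159 kb. In sham 2 loops ended there, with 13 PETs over 123 kb and 19 PETs over 146 kb. All 5 had a counterpart in the other list. MCAO alone had a loop to Adcyap1r1 itself (206 kb, 13 PETs), and sham alone a loop the other way to Itprid1 (123 kb, 13 PETs).

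Neurod2, its relative (chr11:98325415-98329645), had no loop at its ends in either list. The nearest anchor was 5.67 kb from the gene in MCAO, just outside the window, and 106 kb from it in sham. MCAO listed a loop of 74.7 kb with 23 PETs and one of 311 kb with 11 PETs that passed over Neurod2, and sham listed 0. Within 100 kb of the gene there were anchors of 4 MCAO loops and 0 sham loops, and no like count over all genes is given here. With a window of 10 kb at gene ends, the difference at Neurod2, MCAO minus sham, was 1 loop.

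**Figure D2:**
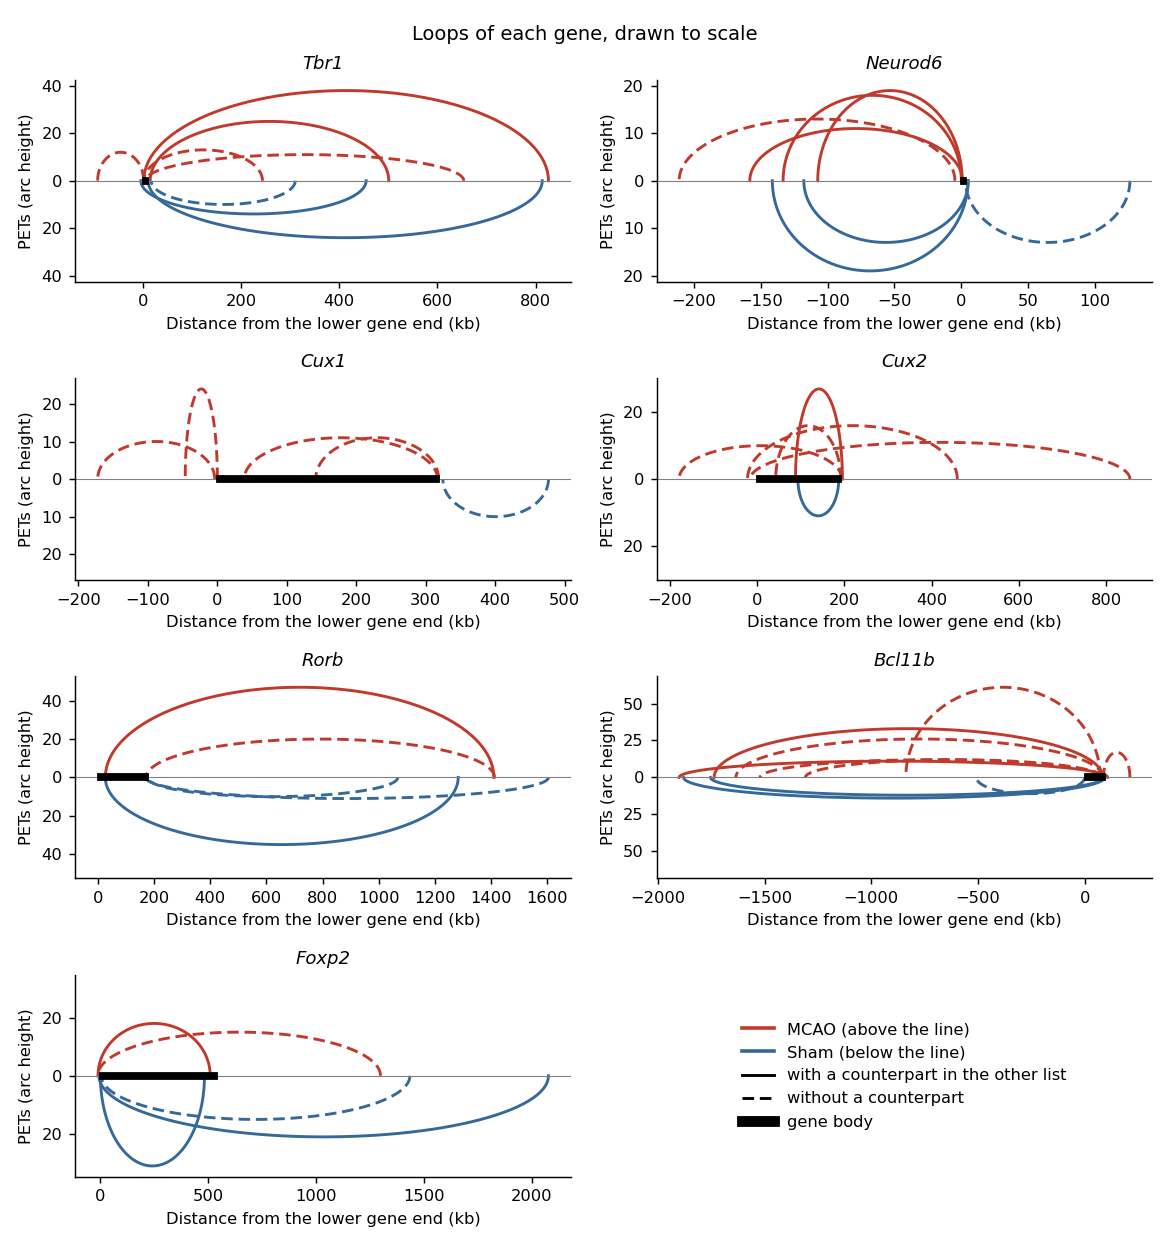
Loops of the 7 genes that have any, with distance from the end of the gene at the lower coordinate on the x axis (kb) and arc height as PETs on the y axis, MCAO above the line and sham below it. Solid arcs have a counterpart in the other list and dashed arcs have none. The long arcs of Bcl11b run to the left over up to 2009 kb in MCAO and 1973 kb in sham, those of Rorb and Foxp2 run to the right, and those of Neurod6 mostly to the left over 108 to 206 kb in MCAO.

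Long loops were a feature of Bcl11b, Rorb and Foxp2 and not of all 9 genes. The overall median span was 481 kb in MCAO (168 to 911) and 507 kb in sham (152 to 1431), and the medians of all gene-end loops, 292 and 359 kb, lie inside these intervals. By gene it was 1608 kb in MCAO and 1845 kb in sham for Bcl11b, but 146 and 123 kb for Neurod6 and 173 and 152 kb for Cux1. Spans over 1 Mb were seen in 8 of 29 MCAO loops, 27.6% (12.7 to 47.2), and 6 of 17 sham loops, 35.3% (14.2 to 61.7). Over all gene-end loops, each counted once, the shares were 8.73% and 11.2%, which lie below these intervals. The intervals take loops as independent, but loops of the same gene can share an anchor. An excess over the background can therefore not be read from them. At the 9 genes, the spans over 1 Mb came from Bcl11b, Rorb and Foxp2 alone in both lists. PETs per loop ranged over 10 to 61 in MCAO and 10 to 35 in sham, with medians of 16 and 13, against 14 and 13 over all gene-end loops.

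**Figure D3:**
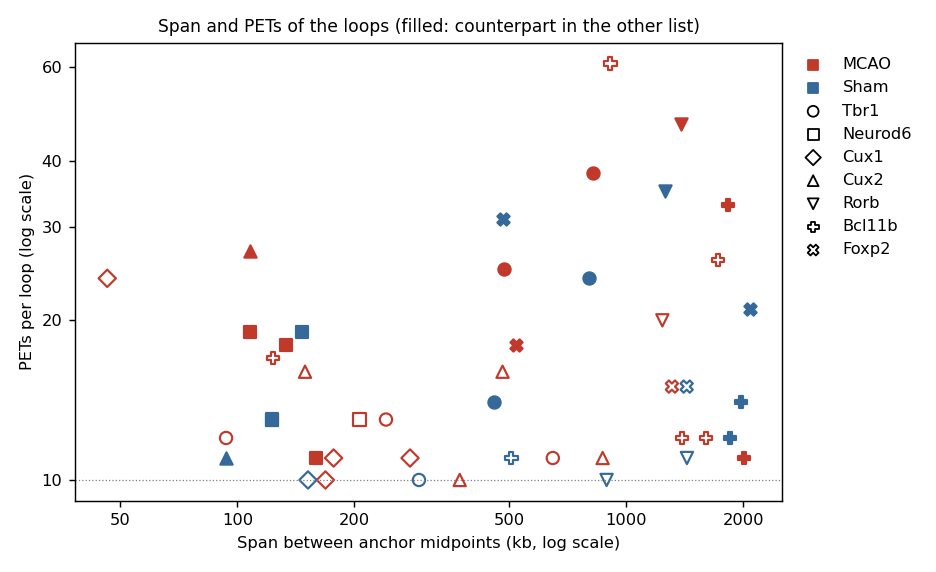
Span between anchor midpoints in kb (x axis, log scale) and PETs (y axis, log scale) of the 29 MCAO and 17 sham loops, with 1 symbol per gene. Filled symbols have a counterpart in the other list, the dotted line is the minimum of 10 PETs, and 2 sham loops of Neurod6 with 13 PETs and 123 kb overlie each other. The symbol at the top is the MCAO loop of Bcl11b with 61 PETs, which has no counterpart.

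Partner anchors were classed by what they held. In MCAO 13 of 29 lay at the end of another gene, 6 in a gene body, 6 in a gene desert (an interval of at least 500 kb without a protein-coding gene) and 4 elsewhere between genes. In sham the numbers were 4, 5, 5 and 3 of 17. The desert share was 20.7% in MCAO (7.99 to 39.7) and 29.4% in sham (10.3 to 56.0), against 13.8% and 16.0% of all gene-end loops. At gene ends it was 44.8% in MCAO (26.4 to 64.3) and 23.5% in sham (6.81 to 49.9), against 34.4% and 35.0%. Each of these backgrounds lies inside the interval, but they count each loop once. A loop with gene ends at both anchors can be reached from either gene. Counted once per gene-end anchor, the gene-end background would be higher and the desert background lower, and neither is given here. Among all gene-end loops over 500 kb, the desert share was 30.3% in MCAO and 30.5% in sham. At the 9 genes it was 46.2% in MCAO (6 of 13, 19.2 to 74.9) and 55.6% in sham (5 of 9, 21.2 to 86.3) at that length. Whether span accounts for the desert shares was not tested. Bcl11b, Rorb and Foxp2 supplied all the desert partners. Of the 9 genes, Bcl11b and Rorb have a flanking gap of at least 500 kb, as do 6.27% of all genes, and the median of the larger gap was 176 kb for the 9 genes against 35.9 kb for all.

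**Figure D4:**
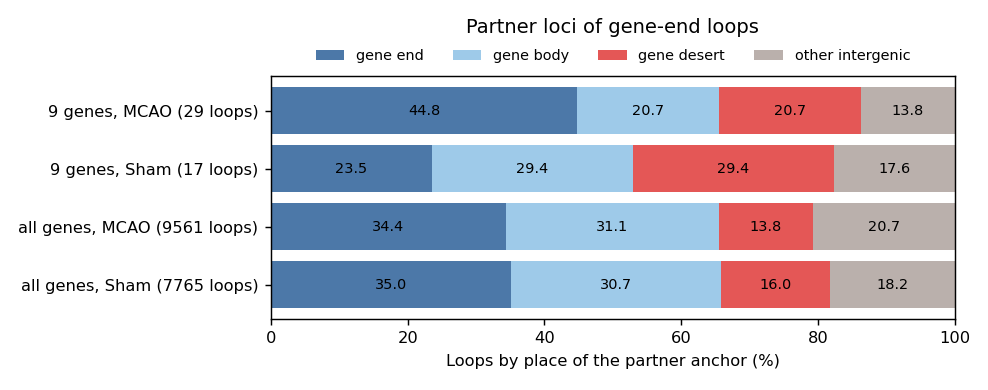
Share of loops in percent (x axis) by the place of the partner anchor, for the 9 genes and for all protein-coding genes in each list. Desert partners make up 20.7% in MCAO and 29.4% in sham for the 9 genes, against 13.8% and 16.0% for all genes, with each loop counted once.

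A counterpart is a loop of the other list whose midpoints each lie no farther off than the width of the widest anchor of the pair. Counterparts were found for 10 of 29 MCAO loops, 34.5% (17.9 to 54.3), and 10 of 17 sham loops, 58.8% (32.9 to 81.6). Over all gene-end loops the shares were 29.9% and 36.2%, and both lie inside these intervals. In MCAO, Bcl11b had 5 of the 19 loops without a counterpart, Cux1 and Cux2 had 4 each, Tbr1 had 3, and Foxp2, Rorb and Neurod6 had 1 each.

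In 10 pairs the loops were each other's nearest counterpart, and in 8 of them both loops lay at the gene. PETs per 1000000 were higher in MCAO in 6 pairs and lower in 4, with a median log2 ratio of 0.39, MCAO over sham. Like values for counterpart pairs of all gene-end loops are not given here. These numbers and those of the intervals below thus have no background. The interval left out 0 in 4 pairs. Those higher in MCAO were the Rorb loop toward Anxa1 (47 PETs in MCAO and 11 in sham, log2 ratio 1.88, 0.91 to 2.98), the Bcl11b loop of 1823 kb (33 and 12, 1.25, 0.26 to 2.33) and the Cux2 loop inside the gene (27 and 11, 1.08, 0.02 to 2.24). The Foxp2 loop inside the gene was lower in MCAO (18 and 31, -0.998, -1.92 to -0.11).

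Anchor widths moved with these differences. The summed width of both anchors was 156 kb in MCAO and 24.8 kb in sham for the Rorb pair, 122 and 59.6 kb for Bcl11b, 41.7 and 20.8 kb for Cux2 and 81.8 and 115 kb for Foxp2, so in each the wider loop held more PETs. In the density that the authors deposited, which divides by anchor width and depth, the log2 ratios were -0.77 for Rorb, 0.21 for Bcl11b, 0.08 for Cux2 and -0.50 for Foxp2, with a median of 0.02 over the 10 pairs. Per square kb of anchor area each of these pairs changed sign, with -3.60 for Rorb, -0.91 for Bcl11b, -0.93 for Cux2 and 0.13 for Foxp2. Over the 10 pairs the median was -0.39, and 2 were higher in MCAO.

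**Figure D5:**
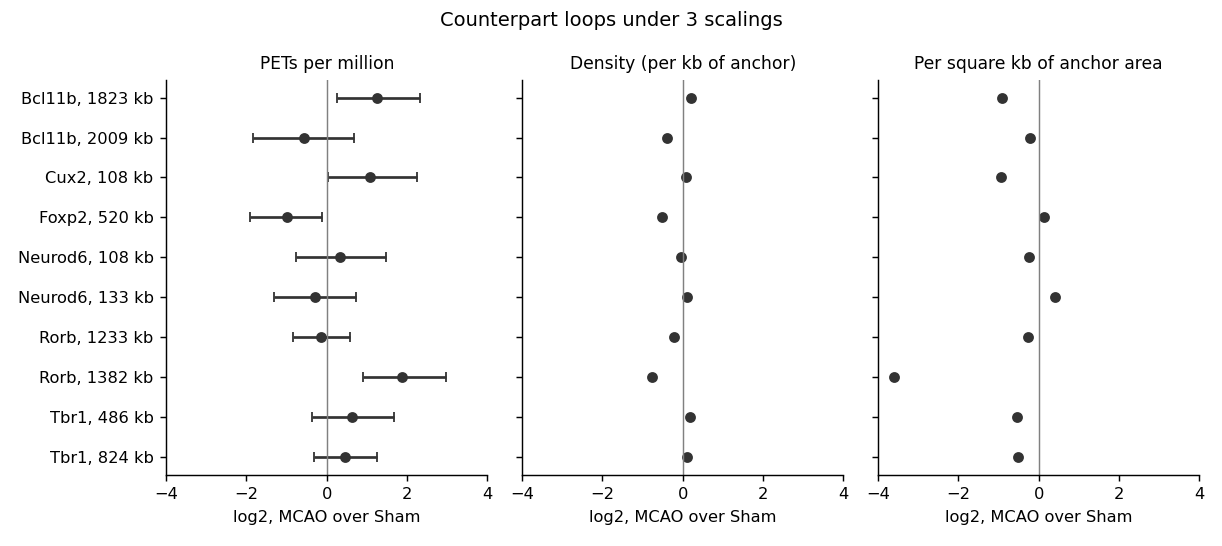
Log2 ratio of MCAO over sham (x axis) for the 10 pairs of counterpart loops, named by gene and MCAO span, under 3 scalings of the PETs. Bars in the left panel are exact intervals from counting error. The Rorb pair of 1382 kb lies at 1.88 for PETs per 1000000 and at -0.77 for density.

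PETs summed over the loops of a gene depend on how many loops reached the minimum of 10 in each list, so they are given without a ratio. Beside them stands the anchor length summed over loops. A stretch shared by overlapping anchors counts again for each loop, so this sum can exceed the length covered. The values per kb divide by this sum. Bcl11b had 172 PETs on 642 kb of anchors in MCAO and 37 on 188 kb in sham, or 0.00661 and 0.00564 PETs per 1000000 and kb. Cux2 had 80 on 265 kb in MCAO and 11 on 20.8 kb in sham, or 0.00744 and 0.0151. Cux1 had 56 on 113 kb in MCAO and 10 on 43.1 kb in sham, or 0.0122 and 0.00664. The larger sum in MCAO at Cux2 thus went with a lower value per kb, while at Bcl11b and Cux1 the value per kb was higher in MCAO. Per kb, Tbr1 had 0.00749 in MCAO and 0.00654 in sham, Rorb 0.00672 and 0.00655, Neurod6 0.0107 and 0.0156 and Foxp2 0.00494 and 0.00657. Over the 9 genes together it was 0.00738 in MCAO and 0.00725 in sham, with 4 genes higher in MCAO and 3 lower. Over all gene-end loops it was 0.00813 in MCAO and 0.00857 in sham, above both values and lower in MCAO. The share of all genes with a higher value in MCAO is not given here.

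A list of 25 other genes of projection neurons had 76 distinct loops in MCAO and 60 in sham. The log2 ratio of 0.34 (-0.17 to 0.85) is near the 0.30 of all gene-end loops, and its interval holds 0. There were more loops in MCAO at 13 genes and fewer at 3, with none in either list at 1 and a median difference of 1. Of all genes with a loop in either list, 46.6% had more in MCAO and 33.6% had fewer, with a median difference of 0. More loops in MCAO were found at Lmo4, a LIM-domain cofactor gene (9 and 5), Crym, a deep-layer marker (3 and 0), Id2 (6 and 4), Etv1 and Tshz3 (4 and 2 each) and Eomes, the T-box gene of cortical progenitors (2 and 0). Fewer were found at Ldb2 (0 and 3) and Bhlhe22 (4 and 6). The 14 genes of inhibitory neurons had 9 loops in MCAO and 10 in sham (-0.15, -1.63 to 1.30), with more at 3 genes and fewer at 2. None was in either list at 7 of them, and 38.4% of all genes had none. Gad1, a GABA synthesis gene, had 0 and 3, and Prox1 had 2 and 0.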

How the data were processed

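Hi-C loops from cortex of 1 MCAO and 1 sham list were analysed. HiC-Pro and Bowtie2 were used on mm10, per the submitters' processing notes, and no loop caller is named in the labels or files. The authors deposited unscaled counts, namely the PETs of each loop and the reads at each anchor, and the smallest listed loop has 10 PETs. They also deposited a density signal. Read as PETs over anchor length in kb and over library PETs in units of 1000000, it gave the same library total for each loop of a list, and these totals are the depth used here. The deposited enrichment ratios were not used. The deposited p-values served only to rank loops within a list, and the deposited FDR was at most 0.05. Positions, deposited as other values, are given as in the files.

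Genes were those of RefSeq on GRCm38.p6, matched by symbol. A partner anchor was classed as gene end (within 2.5 kb), gene body, gene desert or other intergenic, in that order. Intervals are exact Poisson for numbers, Clopper-Pearson for shares and binomial for ratios, and for medians they come from order statistics. With 1 list per group no p-value was computed, and the 3 cortices per group are not separated. Matching and gene-end assignment were tested on simulated loops. The genes named are the 9, those with an end within 2.5 kb of a partner anchor, those on either side of a partner anchor in a desert, and those of the other lists with a difference of at least 2 loops. Setd3, Gcg, Aldh1a1 and Tes were chosen after their values were seen. The 9 genes and the other lists were chosen with earlier results of these data known. Python 3.11.15, pandas 2.3.3, numpy 2.4.6, scipy 1.17.1 and matplotlib 3.10.9 were used. Alternatives were the window at gene ends, the PET minimum, the depth, loops under the median p-value of their list, the rule for counterparts and the length of a desert. Loops at transcription starts and scaling by anchor width were added after seeing the data.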

Additional observations from a re-analysis of the deposited data

How the results depend on the processing

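No paired analysis was possible because each group has 1 loop list. The log2 ratio of loop numbers at the 9 genes stayed above 0 under all 8 alternatives. It ranged from 0.29 with any part of the gene (38 loops in MCAO and 31 in sham) to 1.42 with at least 15 PETs (16 and 6). With MCAO PETs divided by the depth ratio it was 0.30 (21 and 17). All gene-end loops gave 0.30 as reported, and their ratio under each alternative is not given here. A value above 0 thus does not set the 9 genes apart. The ratio of median spans, 0.949, reversed to 1.55 among loops under the median deposited p-value of their list (15 and 8 loops), and it was 0.489 to 0.958 under the other 3 alternatives. The median log2 ratio of counterpart pairs, 0.39, reversed to -0.39 per square kb of anchor area. The share of sham loops with a counterpart moved to 83.3% with at least 15 PETs and 87.5% under the median p-value, where 6 and 8 sham loops were left. It moved to 35.3% with midpoints within 25 kb. The share over all gene-end loops under these alternatives is not given here, so they have no like background. The share of MCAO loops with a desert partner moved to 6.90% with deserts of at least 1 Mb, which leaves out the 556 kb interval at Bcl11b, and that of sham loops to 17.6%. Among loops under the median p-value the desert shares were 13.3% in MCAO and 12.5% in sham, of 15 and 8 loops. The 13.8% and 16.0% of all gene-end loops were taken without this filter and are not a like background. For single genes, Neurod6 reversed to -1 under the median p-value and Rorb to 1 with at least 15 PETs. The causes were not tested where none is named. With about 1 to 7 loops per gene, the number of loops limits every comparison.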

Other observations

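Loops with an anchor centred in the gap next to each gene were counted without regard to where they led. The gap between Adcyap1r1 and Neurod6 held 9 loops in MCAO and 3 in sham, of which 3 and 2 led to an end of Neurod6. The gap between Rorb and Anxa1 held 13 and 10, of which 2 and 2 led to an end of Rorb. The desert between Mdfic and Tfec, beyond Foxp2, held 6 in MCAO and 12 in sham, of which 1 and 1 led to an end of Foxp2 and 1 and 3 to any part of it. These numbers include the loops of the genes themselves and have no test and no replicate check. Like counts for other gaps of the genome are not given here.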
